A study of Mus musculus with 6 samples.

Results

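The mRNA levels of 10 Polycomb genes were followed in mouse two-cell embryos with and without injected mRNA for PIASy, an E3 ligase for the small ubiquitin-like modifier SUMO. They were taken by gene name from the table of FPKM values (fragments scaled to gene length and library depth), and all 10 were present among its 53023 genes. Ezh1, Ezh2, Eed and Suz12 encode the core of Polycomb repressive complex PRC2, Ring1 and Rnf2 encode the alternative catalytic subunits of PRC1, and Pcgf6, L3mbtl2, Mga and E2f6 encode subunits of the variant complex PRC1.6. RNA-seq was available for 3 groups with 2 libraries each, and each library was made from 5 pooled embryos of the ICR strain at 28 hours post insemination (hpi) after culture in KSOM medium. PIASy-WT embryos had received mRNA for HA-tagged wild-type PIASy, and PIASy-Mut embryos had received HA-tagged PIASy with the C335F change in the RING finger, which removes the SUMO ligase activity. Both mRNAs were given into the cytoplasm at 100 ng/µl from 1.5 hpi to 3 hpi, and embryos fluorescent at 9 hpi were kept. The control, called non-injection, received no mRNA and no mock injection. Injection itself, and the mCherry-HA tag that the paper describes for both proteins, were thus shared by PIASy-WT and PIASy-Mut only. The comparisons asked whether excess PIASy changed the mRNA level of these Polycomb genes and whether such a change was also seen with the mutant. The paper reports PIASy-WT mainly in nuclei and PIASy-Mut in both nuclei and cytoplasm. A difference between them therefore cannot be assigned to ligase activity apart from location.

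PRC2 methylates lysine 27 of histone H3, through EZH2 or its paralog EZH1 together with EED and SUZ12. PRC1 attaches ubiquitin to histone H2A through RING1 or RNF2, and one of a family of PCGF proteins gives each PRC1 complex its identity. PRC1.6 is the form built on PCGF6, in which MGA serves as a scaffold, MGA and E2F6 bind DNA and L3MBTL2 binds chromatin. It is known for silencing germline genes in embryonic stem cells, and L3MBTL2 is itself a SUMO-modified protein. In the early mouse embryo, H3K27me3 inherited from the oocyte keeps the maternal copy of a small set of genes silent.

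The upstream sequences of 4 of the genes are shown because L3mbtl2, Mga and Rnf2 were the members with both PIASy-WT libraries below all 4 others, while Suz12 had almost the same level in all libraries. Each is the 250 bases before the RefSeq start in GRCm38.p6, the assembly of mm10, written 5′ to 3′ on the gene's own strand with each CG dinucleotide in capitals. They span chr15:81663639-81663888 on the plus strand for L3mbtl2, chr2:119896978-119897227 on the plus strand for Mga, chr1:151500992-151501241 on the minus strand for Rnf2 and chr11:79992856-79993105 on the plus strand for Suz12.
L3mbtl2: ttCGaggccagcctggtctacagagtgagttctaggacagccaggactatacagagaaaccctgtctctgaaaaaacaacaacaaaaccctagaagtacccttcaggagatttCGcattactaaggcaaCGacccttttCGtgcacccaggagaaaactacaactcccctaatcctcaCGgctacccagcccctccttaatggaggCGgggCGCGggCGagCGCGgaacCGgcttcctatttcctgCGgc
Mga: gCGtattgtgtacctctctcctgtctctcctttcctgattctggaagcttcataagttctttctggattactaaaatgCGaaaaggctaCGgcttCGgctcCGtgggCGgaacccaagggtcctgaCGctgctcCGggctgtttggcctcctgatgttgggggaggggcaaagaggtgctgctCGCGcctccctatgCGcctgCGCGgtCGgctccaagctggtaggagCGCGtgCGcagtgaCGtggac
Rnf2: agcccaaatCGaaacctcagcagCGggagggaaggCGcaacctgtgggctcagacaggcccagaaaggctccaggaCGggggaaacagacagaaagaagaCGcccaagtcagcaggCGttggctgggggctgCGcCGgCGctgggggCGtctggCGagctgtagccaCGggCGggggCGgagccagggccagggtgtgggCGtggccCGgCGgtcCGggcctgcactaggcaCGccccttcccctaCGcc
Suz12: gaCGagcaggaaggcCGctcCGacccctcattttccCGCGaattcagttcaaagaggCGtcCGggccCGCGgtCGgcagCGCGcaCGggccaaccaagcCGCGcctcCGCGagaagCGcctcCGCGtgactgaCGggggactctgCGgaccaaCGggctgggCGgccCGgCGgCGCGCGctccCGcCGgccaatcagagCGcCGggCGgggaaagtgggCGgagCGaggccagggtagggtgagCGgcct
The number of CG dinucleotides was 13 for L3mbtl2, 18 for Mga, 20 for Rnf2 and 37 for Suz12. All 10 members were matched and had from 12 in Eed to 37 in Suz12, whereas the median over 32851 mouse promoters was 6. Thus all 10 promoters were richer in CG than the median promoter, and the 3 genes with lower PIASy-WT levels lay within the range of the others. The letters CACGTG, the E-box read by MGA with its partner MAX, were in the 250 bases of 0 of the 10 members and of 6.02% of all promoters. The letters GCGGGAA, a form of the E2F site, were present on either strand in Suz12 alone and in 3.82% of all promoters, and this form does not overlap the E-box. A match describes these letters in this window and not binding. For Rnf2 the bases at the RefSeq start were not found in the GENCODE M21 transcripts, so its start may lie elsewhere in the annotation used for counting.

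The libraries held between 871663 fragments on genes in a PIASy-Mut library and 1363928 in a non-injection library, and the detection limit was set at 3 fragments, which is a CPM of 2.20 to 3.44 in these libraries. Pias4, which encodes PIASy, was at 2.98 and 3.59 FPKM without injection, at 862 and 611 with PIASy-Mut and at 610 and 579 with PIASy-WT. The summed two-cell and blastocyst lineage markers separated PIASy-WT from both other groups, while the oocyte, cumulus cell and sperm sums overlapped between PIASy-WT and PIASy-Mut. The 6 two-cell embryo markers summed to 1139 to 1172 FPKM without injection, 1224 to 1427 with PIASy-Mut and 466 to 659 with PIASy-WT, and at an adjusted P of at most 0.05 by limma Dppa4 was lower in PIASy-WT than in both other groups and Tcstv3 lower than in PIASy-Mut, whereas Zscan4d and Usp17la had log2 fold changes of -0.22 and 0.58 against non-injection (adjusted P 0.821 and 0.517). The 6 oocyte markers summed to 2684 to 3150 FPKM without injection, 2996 to 4369 with PIASy-Mut and 4126 to 4899 with PIASy-WT, although Zp3 was called lower in both PIASy-WT comparisons. Cumulus cell markers summed to at most 5.92 FPKM in every library, with 2 of 6 at 0 and 5 of 6 below 1 FPKM in all libraries. Sperm markers, of which 1 of 4 was at 0, summed to at most 5.89 FPKM, and the 4 blastocyst lineage markers summed to 1.05 to 2.65 FPKM without injection, 4.67 to 6.81 with PIASy-Mut and 12.7 to 13.8 with PIASy-WT, where Krt18 was called higher than in non-injection. The part of these shifts in the results below was not tested. In pooled embryos a lower level in every cell and a lower number of contributing cells cannot be told apart.

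The members were present over a wide range of levels in control two-cell embryos. By FPKM, which is scaled to gene length, the mean over the non-injection libraries was highest for Suz12 (166 ± 6.38, SD, n = 2) and then for Pcgf6 (130 ± 3.44), Rnf2 (91.2 ± 31.8), Eed (58.2 ± 15.4) and Ezh2 (43.5 ± 7.92). Much lower were Mga (7.46 ± 0.529), L3mbtl2 (6.51 ± 1.43), Ezh1 (3.74 ± 0.420) and E2f6 (0.649 ± 0.186), and Ring1 was listed at 0. The ranges of the 2 libraries overlapped between Rnf2 and Eed, between Eed and Ezh2, and between Mga and L3mbtl2, so the order within these neighbours was not settled. Suz12 stood above 98.6% of the 21963 protein-coding genes in non-injection and Pcgf6 above 98.2%, while L3mbtl2 stood above 77.4% and Ezh1 above 70.9%. Of the 4 PRC1.6 members, 1 (Pcgf6) was therefore an abundant mRNA and 3 were at a much lower level.

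**Figure D1:**
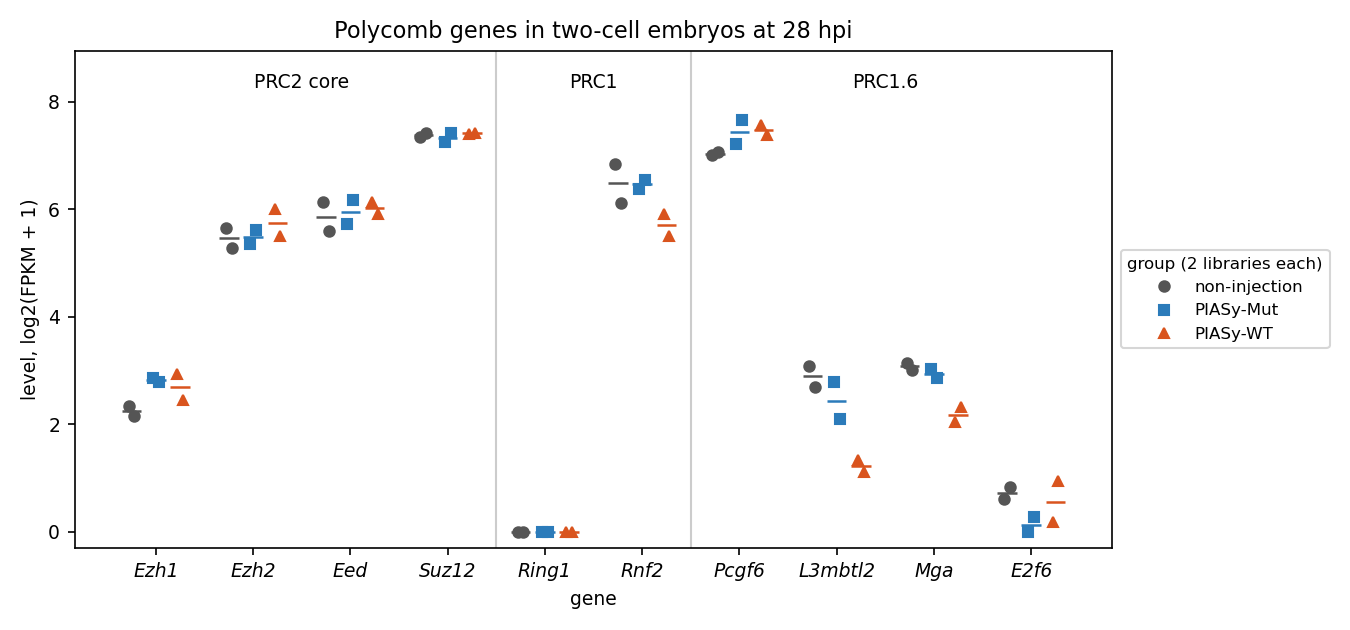
Level of each of the 10 genes as log2(FPKM + 1) in each of the 6 libraries (points, 2 per group) with the group mean (short line), by complex. The PRC2 core genes overlapped between groups or were lower in non-injection only (Ezh1), Ring1 lay at 0 in all libraries, and the PIASy-WT points of Rnf2, L3mbtl2 and Mga lay below the other 4.

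The order of the members changed at a few places between groups. In PIASy-WT the means were 178 ± 16.2 for Pcgf6, 170 ± 1.46 for Suz12, 64.2 ± 7.57 for Eed, 53.7 ± 13.3 for Ezh2 and 51.7 ± 10.2 for Rnf2 (SD, n = 2). Rnf2, which averaged 91.2 FPKM in non-injection, thus stood above Eed and Ezh2 there and below both in PIASy-WT, although its range overlapped that of Eed in both groups and that of Ezh2 in PIASy-WT, so this change of order was not settled. Ezh1, at 5.57 ± 1.59 FPKM, ranked above Mga (3.53 ± 0.616) and L3mbtl2 (1.35 ± 0.249) in PIASy-WT without overlap, the reverse of their order in non-injection. In PIASy-Mut the order was Pcgf6 (175 ± 38.3), Suz12 (161 ± 14.1), Rnf2 (87.5 ± 7.56), Eed (61.6 ± 13.8) and Ezh2 (44.0 ± 5.80), and the ranges of Pcgf6 and Suz12 overlapped.

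None of the 8 tested members passed the threshold by limma in any comparison. Calls required an adjusted P no higher than 0.05 (limma, Benjamini-Hochberg adjustment over the 16100 genes tested). In PIASy-WT against non-injection 0 of 8 members were called, beside 6.8% of all genes tested, of which 5.76% were called lower and 1.03% higher. Against PIASy-Mut, 0 of 8 members were called in PIASy-WT, beside 6.83% of all genes (6.01% lower and 0.82% higher). In PIASy-Mut against non-injection 0 of 8 members were called, beside 0.00621% of all genes. At an unadjusted P under 0.05 the members numbered 2 (L3mbtl2 and Mga, beside 28.2% of all genes), 1 (L3mbtl2, beside 27.7%) and 0 (beside 4.46%). With voom on fragment counts recovered from FPKM and length, L3mbtl2 and Mga (2 of 8) were called lower in PIASy-WT against non-injection, beside 11.8% of all genes called lower and 4.99% higher by voom. By voom 0 members were called in the other 2 comparisons, beside 11.7% of all genes lower and 3.31% higher against PIASy-Mut and 0.00621% in PIASy-Mut against non-injection. With the stricter rule that also asks for a log2 fold change of 2 in size, 0 members were called by limma, beside 4.42% and 4.57% of all genes in the PIASy-WT comparisons, whereas the voom value of L3mbtl2 relative to non-injection was -2.21 (adjusted P 0.0149). The smallest log2 fold change called for any gene was 1.10 in size in PIASy-WT against non-injection and 1.03 against PIASy-Mut, and 7 of the 8 members differed by less than either in both comparisons. Ring1 and E2f6 did not reach 1 FPKM in at least 2 libraries and were not tested.

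**Figure D2:**
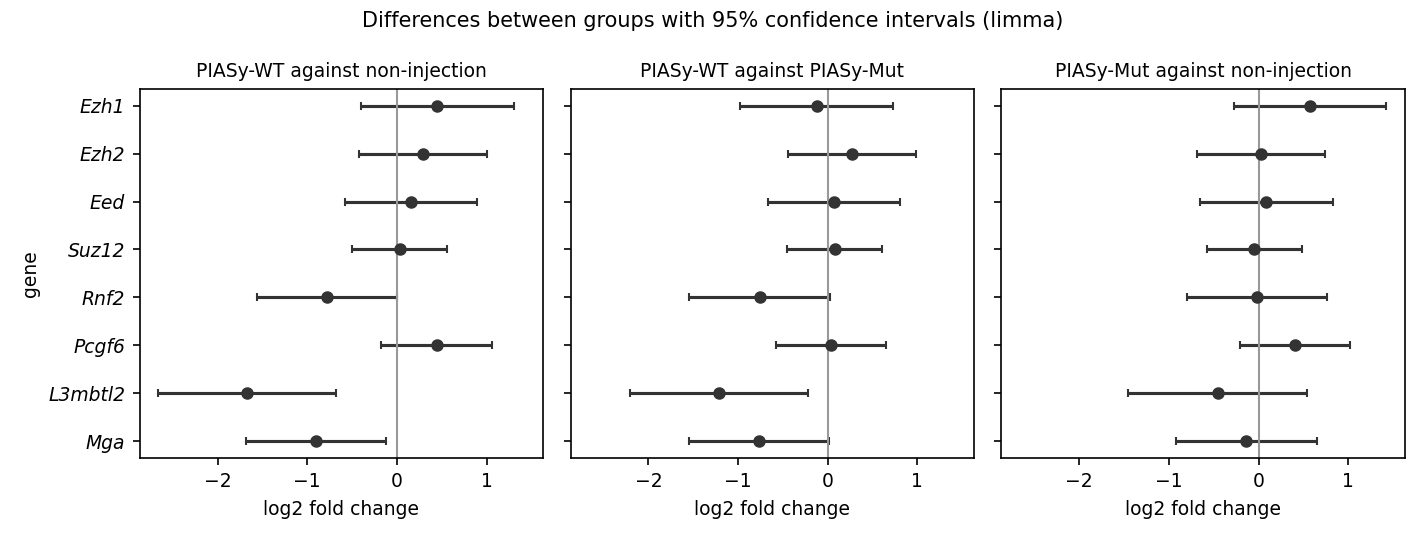
Log2 fold change of FPKM + 1 (points) with its 95% confidence interval (bars) from limma for the 8 tested genes in the 3 comparisons. The intervals of L3mbtl2 lay below 0 in PIASy-WT against non-injection (-2.66 to -0.68) and against PIASy-Mut (-2.21 to -0.22), and those of the 4 PRC2 core genes included 0 in all 3 comparisons.

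Among the PRC2 core genes the catalytic subunits were Ezh2 at high and Ezh1 at low level. Positions of genes are given in mm10, as in the table. Ezh2 (ENSMUSG00000029687.16, chr6:47530139-47595341, minus strand) was at 49.1 and 37.9 FPKM without injection, 39.9 and 48.1 with PIASy-Mut and 63.0 and 44.3 with PIASy-WT. The groups overlapped, and PIASy-WT differed by 0.29 on the log2 scale from non-injection (95% CI -0.43 to 1.00, adjusted P 0.551 by limma) and by 0.27 from PIASy-Mut (95% CI -0.45 to 0.98). Ezh1 (ENSMUSG00000006920.14, chr11:101191115-101226463, minus strand), the paralog with the weaker methyltransferase activity, was at 4.04 and 3.45 FPKM without injection, 6.25 and 5.86 with PIASy-Mut and 6.69 and 4.44 with PIASy-WT. Both injected groups lay above non-injection in every library, on 29 to 66 fragments per library. Against non-injection the difference of Ezh1 on the log2 scale was 0.57 for PIASy-Mut (95% CI -0.28 to 1.43, limma adjusted P 1) and 0.45 for PIASy-WT (95% CI -0.40 to 1.30, adjusted P 0.439), so that the interval of each reached from no change to more than 1 on the log2 scale.

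Of the 2 other core subunits, Suz12 had the steadier level. Eed (ENSMUSG00000030619.9, chr7:89954654-89980983, minus strand), whose protein reads the H3K27me3 mark, was at 69.1 and 47.4 FPKM without injection, 51.9 and 71.3 with PIASy-Mut and 69.6 and 58.9 with PIASy-WT, and its replicates differed by more than its groups. Suz12 (ENSMUSG00000017548.15, chr11:79993106-80034123, plus strand), the scaffold of PRC2, was at 162 and 171 FPKM without injection, 151 and 171 with PIASy-Mut and 169 and 171 with PIASy-WT. In PIASy-WT it differed by 0.03 on the log2 scale against non-injection (95% CI -0.50 to 0.56) and 0.08 against PIASy-Mut (95% CI -0.45 to 0.61), the narrowest intervals of the 8 members. Changes of Suz12 larger than these bounds were outside the intervals, and smaller ones were not detectable with 2 libraries per group. The corresponding log2 fold changes of Eed were 0.16 (95% CI -0.58 to 0.90) and 0.07 (95% CI -0.67 to 0.81).

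Ezh2 exceeded Ezh1 in all 6 libraries. The ratio of Ezh2 to Ezh1 FPKM was 12.1 and 11.0 without injection, 6.38 and 8.21 with PIASy-Mut and 9.42 and 9.97 with PIASy-WT. The ratio was thus lower in all 4 libraries of injected embryos than in the 2 controls, and the PIASy-WT libraries lay between the other groups. The ratio is given as a description and was not tested.

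The catalytic subunits of PRC1 were represented by Rnf2. Rnf2 (ENSMUSG00000026484.13, chr1:151458004-151500955, minus strand), also called RING1B, was at 114 and 68.8 FPKM without injection, 82.2 and 92.8 with PIASy-Mut and 58.9 and 44.5 with PIASy-WT. Both PIASy-WT libraries lay below the other 4, the nearest being 58.9 against 68.8 FPKM, and the non-injection libraries differed more from each other than this. On the log2 scale Rnf2 differed in PIASy-WT by -0.78 from non-injection (95% CI -1.56 to 0.01, limma adjusted P 0.179) and by -0.76 from PIASy-Mut (95% CI -1.54 to 0.02, adjusted P 0.191), and -0.02 in PIASy-Mut against non-injection. The value of -0.78 became -0.42 (adjusted P 0.569) without the first non-injection library and ranged down to -1.14 over all libraries left out in turn. Of the exon bases of Rnf2, 3.83% overlap Trmt1l on the opposite strand, a gene at 1.62 to 4.03 FPKM in all libraries.

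Ring1 (ENSMUSG00000024325.8, chr17:34020792-34024680, minus strand), which encodes the paralog RING1A, was listed at 0 FPKM in all 6 libraries. At the depth of these libraries 3 fragments on Ring1 would have been 0.678 to 1.06 FPKM, so a level up to this bound was not detectable. A value of 0 in all libraries was shared by 20.3% of the 21963 protein-coding genes. Of the 14 other protein-coding genes within 100 kb of Ring1, 1 (H2-Ke6) was also at 0 in all 6 libraries, and the next 3 on that side (Slc39a7, Rxrb and Col11a2) reached at most 0.335, 0.524 and 0.110 FPKM. Ring1 shares no 50-base sequence with another gene and its exons overlap none, and whether the 0 is absent mRNA or a limit of counting was not settled. No ratio of Ring1 to Rnf2 was formed.

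Of the PRC1.6 genes, L3mbtl2 had the largest difference of all members. L3mbtl2 (ENSMUSG00000022394.14, chr15:81663889-81688315, plus strand), which encodes a chromatin reader with malignant brain tumour repeats, was at 7.52 and 5.50 FPKM without injection, 5.87 and 3.28 with PIASy-Mut and 1.52 and 1.17 with PIASy-WT. These values rested on 61 and 37, 36 and 17, and 12 and 8 fragments. All PIASy-WT values lay below all others, and the PIASy-Mut libraries reached below the non-injection range. The difference of PIASy-WT on the log2 scale was -1.67 from non-injection (SE 0.41, 95% CI -2.66 to -0.68, limma unadjusted P 0.00617, adjusted P 0.0637) and -1.21 from PIASy-Mut (95% CI -2.21 to -0.22, unadjusted P 0.0244, adjusted P 0.121). L3mbtl2 did not pass the threshold in either comparison. It passed against non-injection with voom (log2 fold change -2.21, adjusted P 0.0149) and when the fit held only the 4 libraries compared (adjusted P 0.0353). Of the exon bases of L3mbtl2, 17.2% overlap Chadl on the opposite strand, and Chadl itself had 0 to 7 fragments per library.

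Mga (ENSMUSG00000033943.15, chr2:119897228-119969581, plus strand), which encodes a large DNA-binding protein that pairs with MAX, was at 7.84 and 7.09 FPKM without injection, 7.14 and 6.28 with PIASy-Mut and 3.10 and 3.97 with PIASy-WT. The 4 libraries without injected wild-type PIASy lay close together, and both PIASy-WT libraries were below them. For Mga the difference of PIASy-WT was -0.91 from non-injection (SE 0.32, 95% CI -1.69 to -0.12, limma unadjusted P 0.0297, adjusted P 0.134) and -0.77 from PIASy-Mut (95% CI -1.55 to 0.01, adjusted P 0.186). It was -0.14 in PIASy-Mut against non-injection (95% CI -0.92 to 0.65). With voom Mga was called against non-injection (log2 fold change -1.09, adjusted P 0.0357). Mga overlaps no exon of another gene and rested on 63 to 164 fragments per library.

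Pcgf6 (ENSMUSG00000025050.7, chr19:47033619-47050845, minus strand), the PCGF subunit that defines the complex, did not share this direction. It was at 128 and 133 FPKM without injection, 148 and 202 with PIASy-Mut and 189 and 166 with PIASy-WT. All 4 libraries of injected embryos lay above both controls, with overlap between PIASy-Mut and PIASy-WT. Against non-injection the log2 fold change was 0.44 for PIASy-WT (95% CI -0.17 to 1.06, limma adjusted P 0.303) and 0.41 for PIASy-Mut (95% CI -0.21 to 1.02), and 0.03 between the injected groups (95% CI -0.58 to 0.65).

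E2f6 (ENSMUSG00000057469.8, chr12:16810963-16839742, plus strand), a member of the E2F family without a transactivation domain, was near the limit of detection. It was at 0.518 and 0.781 FPKM without injection, 0 and 0.203 with PIASy-Mut and 0.133 and 0.922 with PIASy-WT, from 4 and 5, 0 and 1, and 1 and 6 fragments. Since 3 fragments were worth 0.388 to 0.608 FPKM on this gene, no difference between groups could be read from it.

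The 3 classes are compared by their counts and medians. The median log2 fold change of PIASy-WT against non-injection was 0.22 for the 4 PRC2 core genes and -0.91 for the 3 tested PRC1.6 genes, and Rnf2 stood at -0.78, beside a median of 0.01 over all genes tested. Against PIASy-Mut the corresponding values were 0.08, -0.77 and -0.76, beside -0.03 over all genes. In PIASy-Mut against non-injection they were 0.05, -0.14 and -0.02, beside 0.04. The comparisons with PIASy-WT share its 2 libraries and are not independent. Of the 4 core PRC2 genes 0, and of the 4 tested PRC1 and PRC1.6 genes 3 (Rnf2, L3mbtl2 and Mga), had both PIASy-WT libraries below all others, and 0 of 8 had both above. Among all genes tested 24.4% lay below in this way and 19.9% above. Whether the classes differ was not tested, since the members are few and were chosen as a list. In summed FPKM the PRC2 core gave 284 and 259 without injection, 249 and 296 with PIASy-Mut and 308 and 278 with PIASy-WT, and PRC1.6 gave 144 and 146, 161 and 212, and 194 and 172. The PRC1.6 sum is mostly Pcgf6, and like Pcgf6 it was higher in all 4 libraries of injected embryos than in both controls, unlike L3mbtl2 and Mga.

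PCGF6 is 1 of 6 PCGF proteins that compete for RNF2, and their mRNAs were compared as shares of the summed FPKM of the 6 genes. Bmi1, the PCGF4 subunit of canonical PRC1, held the largest share in every library, with 51.0% and 53.1% without injection, 46.2% and 45.6% with PIASy-Mut and 60.7% and 61.4% with PIASy-WT. The share of Pcgf6 was 20.4% and 21.4% without injection, 21.4% and 30.5% with PIASy-Mut and 25.9% and 26.8% with PIASy-WT, and PIASy-WT lay inside the range of PIASy-Mut. Pcgf1 held 21.9% and 19.4% without injection, 22.9% and 17.6% with PIASy-Mut and 10.2% and 9.60% with PIASy-WT. Pcgf5 held 2.06% and 1.46% with PIASy-WT and 4.88% to 8.76% in the other libraries. In PIASy-WT the share of Bmi1 was thus above, and those of Pcgf1 and Pcgf5 below, all other libraries. Shares of 1 sum are not independent, since a lower share of some genes raises that of the rest. By FPKM, 24.4% of all genes tested had both PIASy-WT libraries below all others and 19.9% had both above.

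**Figure D3:**
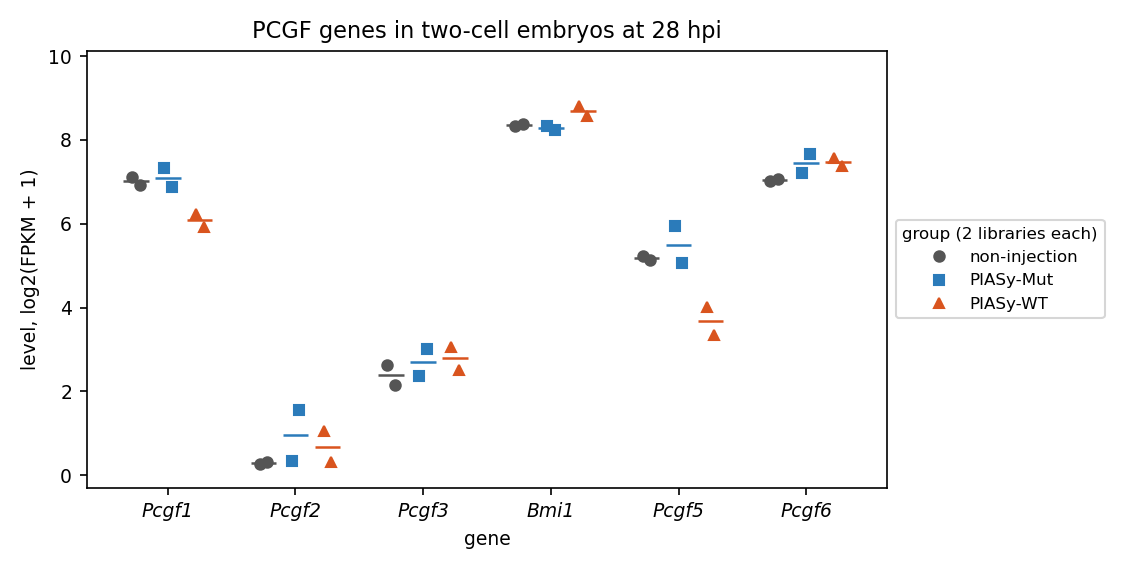
Level of the 6 PCGF genes as log2(FPKM + 1) in the 6 libraries (points, 2 per group) with the group mean (short line). Bmi1 was the most abundant in every library. Pcgf1 and Pcgf5 lay lower and Bmi1 higher in both PIASy-WT libraries than in the other 4, beside 24.4% of all genes tested lower and 19.9% higher. Pcgf6 in PIASy-WT lay inside the range of PIASy-Mut.

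The level of Bmi1 was 320 and 330 FPKM without injection, 320 and 303 with PIASy-Mut and 444 and 381 with PIASy-WT, and its log2 fold change did not pass the test (0.34, adjusted P 0.368 by limma, against non-injection). Pcgf1, the subunit of the variant complex with KDM2B, was at 138 and 120 FPKM without injection, 159 and 117 with PIASy-Mut and 74.6 and 59.6 with PIASy-WT. It did not pass in PIASy-WT against non-injection (log2 fold change -0.94, limma adjusted P 0.0866) or against PIASy-Mut (-1.02, adjusted P 0.0735). Bmi1 and Pcgf1 share 16.7% and 15.3% of their 50-base sequences with the annotated genes Gm5946 and Gm8930, so part of their reads may not have counted as unique. Pcgf5 was at 36.4 and 34.3 FPKM without injection, 60.6 and 32.3 with PIASy-Mut and 15.1 and 9.09 with PIASy-WT. It fell in PIASy-WT against PIASy-Mut (log2 fold change -1.83, 95% CI -2.79 to -0.87, limma adjusted P 0.0496) but did not pass against non-injection (-1.51, adjusted P 0.0722). The call against PIASy-Mut was kept in 4 of 16 alternatives, and against non-injection Pcgf5 was called in 5 of 16, voom among them (adjusted P 0.0080). Pcgf5, Bmi1 and Pcgf1 were named after their values were seen.

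Further lists held 84 Polycomb partners and targets, of which 66 were tested. In PIASy-WT against non-injection 2 of 66 genes fell (Mtf2 and Hdac1) and 0 rose, in PIASy-WT against PIASy-Mut 3 fell (Mtf2, Hdac1 and Pcgf5) and 0 rose, and in PIASy-Mut against non-injection 0 were called. Among all genes tested 5.76%, 6.01% and 0% were called lower. With voom the counts were 9 lower and 4 higher, 10 lower and 3 higher, and 0, beside the voom shares of 11.8% lower and 4.99% higher, 11.7% and 3.31%, and 0.00621% of all genes. At an unadjusted P under 0.05 the list genes numbered 20, 18 and 1, beside 28.2%, 27.7% and 4.46% of all genes. The gene at an unadjusted P under 0.05 in PIASy-Mut against non-injection was AU022751, the X-linked homolog of EZHIP, an inhibitor of PRC2, at 77.9 and 59.9 FPKM without injection, 18.9 and 31.3 with PIASy-Mut and 51.8 and 36.4 with PIASy-WT (log2 fold change -1.45, adjusted P 0.656 by limma), and it was named after its values were seen.

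**Figure D4:**
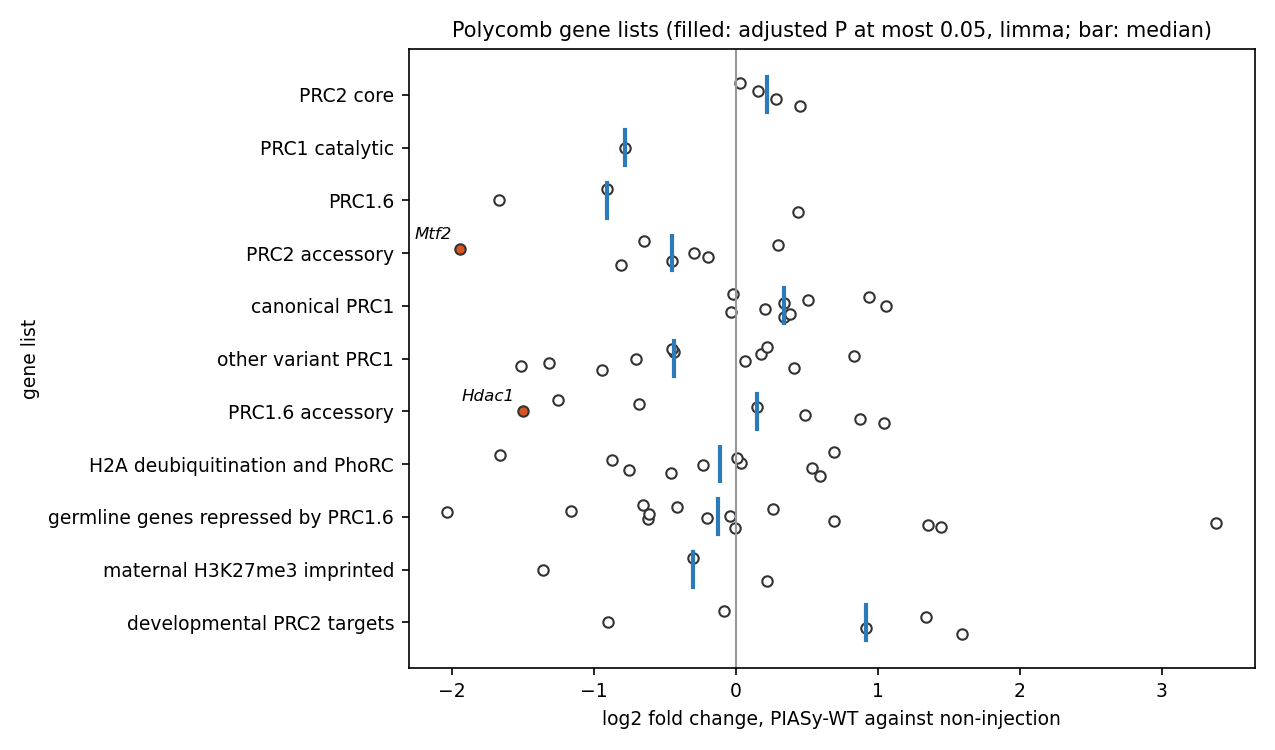
Log2 fold change of FPKM + 1 in PIASy-WT against non-injection for each tested gene (circles) of the 3 member classes and the further lists, with the median of each list (bar). Filled circles mark the 2 genes called by limma, Mtf2 (-1.94) and Hdac1 (-1.50), and most lists held genes on both sides of 0.

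Of the PRC2 accessory genes, 1 of 7 tested (Mtf2) fell in PIASy-WT, beside 5.76% of all genes against non-injection and 6.01% against PIASy-Mut, and the median log2 fold change against non-injection was -0.45. Mtf2 (ENSMUSG00000029267.17, chr5:108065674-108109004, plus strand) encodes a Polycomb-like protein that brings PRC2 to CpG islands. It was at 146 and 113 FPKM without injection, 228 and 101 with PIASy-Mut and 32.4 and 33.1 with PIASy-WT, so that the PIASy-WT libraries lay far below a wide PIASy-Mut pair. Mtf2 fell by 1.94 on the log2 scale against non-injection (95% CI -2.94 to -0.95, limma adjusted P 0.0469) and by 2.18 against PIASy-Mut (95% CI -3.17 to -1.18, adjusted P 0.0379). Each of the calls was kept in 6 of 16 alternatives, and without any 1 library the log2 fold change was -2.13 to -1.76 against non-injection. In the 4 fits that lack a non-injection or PIASy-WT library 0 of all genes were called lower against non-injection, Mtf2 included (adjusted P 0.166 to 0.209). Of its exon bases 6.93% overlap Tmed5 on the opposite strand, and Tmed5 fell as well (log2 fold change -2.41 against non-injection, adjusted P 0.0292), so their reads cannot be fully told apart if strand was not used. The histone-binding subunits Rbbp4 and Rbbp7, Jarid2, Aebp2 and the other tested genes of this list did not pass.

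Of the PRC1.6 accessory genes, 1 of 7 (Hdac1) fell by limma, beside 5.76% of all genes, 5 of 7 had an unadjusted P under 0.05, beside 28.2%, and the median was 0.15. Of these 5, Hdac1, Wdr5 and Cbx3 had negative and Tfdp1 and Max had positive log2 fold changes. Hdac1 (ENSMUSG00000028800.15, chr4:129516104-129542713, minus strand), a histone deacetylase that is also part of other repressor complexes, was at 28.3 and 26.4 FPKM without injection, 31.2 and 24.3 with PIASy-Mut and 8.76 and 9.34 with PIASy-WT. Hdac1 fell by 1.50 on the log2 scale against non-injection (95% CI -2.15 to -0.85, limma adjusted P 0.0356) and by 1.51 against PIASy-Mut (95% CI -2.16 to -0.86, adjusted P 0.0342). The calls were kept in 9 and 7 of 16 alternatives, and without any 1 library the log2 fold change was -1.54 to -1.45 against non-injection. The call was lost (adjusted P 0.155 to 0.204) in the 4 fits that lack a non-injection or PIASy-WT library, where no gene was called lower. Hdac1 shares 35.5% of its 50-base sequences with other genes, most with Gm10093, so its level is uncertain where only uniquely mapped reads were counted. Its paralog Hdac2 was at 44.9 to 48.3 FPKM without injection, 41.4 to 52.3 with PIASy-Mut and 46.1 to 58.0 with PIASy-WT. Max, the partner of MGA, was at 13.2 and 13.3 FPKM without injection, 8.62 and 17.5 with PIASy-Mut and 26.8 and 30.0 with PIASy-WT, above all other libraries. Max did not pass by limma against non-injection (log2 fold change 1.04, adjusted P 0.134) or PIASy-Mut (1.14, adjusted P 0.113), and voom called it higher in the comparison with PIASy-Mut but not in that with non-injection. Wdr5 did not pass by limma in either comparison, and voom called it lower than in PIASy-Mut, so that voom called 2 of 7 lower and 1 higher there, beside 11.7% and 3.31% of all genes. The genes of this list other than Hdac1 were named after their values were seen.

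The remaining partner lists had 0 genes called by limma when PIASy-WT was set against non-injection. These were canonical PRC1 (9 of 12 genes tested, 2 at an unadjusted P under 0.05, median 0.34), the other variant PRC1 genes (11 of 11 tested, 3 at an unadjusted P under 0.05, median -0.43) and the H2A deubiquitination and PhoRC genes (10 of 12 tested, 2 at an unadjusted P under 0.05, median -0.11). With voom the lists had 0, 4 and 1 genes called, beside 11.8% of all genes called lower and 4.99% higher, and 28.2% of all genes had an unadjusted P under 0.05. In PIASy-WT against PIASy-Mut limma called 1 of the 30 genes tested in these lists lower (Pcgf5), beside 6.01% of all genes, and voom called 5 lower (Kdm2b, Pcgf1, Pcgf5, Asxl2 and Yy1), beside 11.7%.

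Genes that Polycomb complexes are known to repress showed no common direction. Of 14 germline genes that PRC1.6 represses in embryonic stem cells, all tested, 0 were called by limma when PIASy-WT was set against non-injection and 5 had an unadjusted P under 0.05, beside 28.2% of all genes, with a median of -0.12. With voom the same 5 were called, 3 higher and 2 lower, beside 4.99% and 11.8% of all genes. These 5, named after their values were seen, went both ways. Taf7l was at 0 and 1.58 FPKM without injection, 0 and 4.09 with PIASy-Mut and 16.5 and 15.1 with PIASy-WT (0 to 8 fragments against 39 and 49, log2 fold change 3.39, adjusted P 0.0671 by limma), Dazl at 145 and 136, 69.8 and 186, and 360 and 412, and Mael at 60.9 and 105, 71.6 and 149, and 178 and 240. Smc1b was at 86.8 and 39.8 FPKM without injection, 88.1 and 26.9 with PIASy-Mut and 21.8 and 8.38 with PIASy-WT, and Hormad1 at 91.2 and 121, 128 and 102, and 56.7 and 38.2. Over the whole list 4 of 14 genes (Taf7l, Dazl, Mael and Slc25a31) had both PIASy-WT libraries above all others and 2 (Smc1b and Hormad1) had both below, beside 19.9% and 24.4% of all genes tested.

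Of 7 genes imprinted by maternal H3K27me3, 3 were tested and 0 were called by limma when PIASy-WT was set against non-injection, with 1 (Jade1) at an unadjusted P under 0.05, beside 28.2% of all genes, and a median of -0.30. By voom Jade1 was lower against both other groups, beside 11.8% and 11.7% of all genes. Of 13 developmental genes that PRC2 holds silent in stem cells, such as Hox and Gata genes, 5 were tested and 0 were called by limma or voom in PIASy-WT against non-injection, with 1 (Gata6) at an unadjusted P under 0.05 and a median of 0.92. Both PIASy-WT libraries lay above all others for Gata6 and below all others for Gata4, named after their values were seen, as 19.9% and 24.4% of all genes did. The other 8 did not reach 1 FPKM in 2 libraries, and 3 of them, named after their values were seen, had more fragments in both PIASy-WT libraries than in all others, beside 9.05% of the 11726 untested genes with at least 1 fragment. These were Pax6 (13 and 22 fragments against 0 to 3), Hoxa9 (18 and 5 against 0 to 4) and Sox17 (4 and 7 against 0).

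The genes whose levels followed the members most closely over the 6 libraries were found by Pearson correlation of log2(FPKM + 1) among tested protein-coding genes with a mean FPKM of at least 5. For L3mbtl2 these included Rab2b (0.998) and Ints4 (0.997), and 1198 of 5664 candidates had a correlation of at least 0.9. For Rnf2 they were Apmap (0.999), Ldha (0.978) and Gm21319 (0.973), with 69 of 5663 at 0.9 or above, and for Ezh1 they were Tmcc3 (0.971), Ywhab (0.956) and Nlrp5 (0.951), with 17 of 5663. The number of genes at 0.9 or above was thus larger for L3mbtl2 than for Rnf2 and Ezh1. Such a number also depends on the size of the differences and on counting error. Ezh1 rested on 29 to 66 fragments per library, so how common each pattern is was not settled. The libraries fall into groups, so these values describe likeness over 6 points and carry no test.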

How the data were processed

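Purified RNA of two-cell embryos was amplified as cDNA with a SMART-Seq kit and sequenced in 3 groups of 2 libraries. The authors trimmed reads with Trim Galore, aligned them to mm10 with STAR, counted uniquely mapped reads with featureCounts and deposited FPKM values (fragments scaled to gene length and library depth) for 53023 genes. Gene length and position came with the deposited table. The annotation release and the use of strand are not given in the sources used here. Spike-ins went into each lysate but are not used here, so levels are shares of a library. FPKM times length gave whole fragments (within 0.01) for 100% of the values above 0. Depth, as fragments on genes, was 1363928 and 1130853 for non-injection, 1032206 and 871663 for PIASy-Mut and 1325411 and 1149421 for PIASy-WT. Reads carried no molecular identifiers, so detection limits cover counting error only.

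Groups were compared with limma 3.58.1 (R 4.3.3) using lmFit and eBayes with trend on log2(FPKM + 1) of all 6 libraries, for 16100 genes with at least 1 FPKM in at least 2 libraries. The Benjamini-Hochberg adjustment ran over all of them. The pseudocount of 1 understates changes of low genes. Degrees of freedom were 3 residual and 3.12 prior. The study counts the 2 libraries of a group as biological replicates, and the labels do not say whether their embryos were collected separately. The procedure was tested on simulated data. The authors used a count-based test with a log2 threshold of 2, and that threshold was applied here to the limma fit as a second rule.

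The members and gene lists were chosen with earlier results of these data known. The rule named all 10 members, the most negative and the most positive called gene of each further list in PIASy-WT against non-injection, list genes called in PIASy-Mut against non-injection, and, for the member of each class with the largest change, the 3 genes most like it, of which 1 is not reported here. Promoters came from RefSeq (GRCm38.p6), and exon overlap and shared 50-base sequences from GENCODE M21. Python 3.11.15, numpy 2.4.6, pandas 2.3.3 and matplotlib 3.10.9 were used. Other pseudocounts, filters, scalings, eBayes without trend, a fit on the compared groups only, a replicate block, voom and leaving out each library were tried. No protein sequences were used here.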

Additional observations from a re-analysis of the deposited data

Results flagged for a closer look

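For 3 genes of the further lists the effect of PIASy-WT against non-injection differed from that of PIASy-Mut against non-injection, by the limma test of the difference itself, which is the comparison of PIASy-WT with PIASy-Mut. The difference on the log2 scale was -1.51 for Hdac1 (adjusted P 0.0342), -2.18 for Mtf2 (adjusted P 0.0379) and -1.83 for Pcgf5 (adjusted P 0.0496), beside 6.83% of all genes called in this comparison. Against non-injection the log2 fold changes in PIASy-WT and PIASy-Mut were -1.50 and 0.01 for Hdac1, -1.94 and 0.23 for Mtf2, and -1.51 and 0.32 for Pcgf5. Without 1 library these differences were -1.68 to -1.33, -2.76 to -1.59 and -2.27 to -1.39. The calls were lost in 5 of 6 such fits, all but the one without the second PIASy-Mut library, and in those 5 no gene of the whole table was called lower. None of the 8 tested members differed in this way at an adjusted P of at most 0.05, with L3mbtl2 nearest at an adjusted P of 0.121. Groups of 2 libraries are too small for a search for outlying libraries.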

How the results depend on the processing

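Across the alternatives, 361 of 384 member fold changes kept their direction and their side of the threshold, 5 passed it and 18 turned direction. L3mbtl2 against non-injection was called in 4 of 16 alternatives (adjusted P 0.0149 to 0.265), Mga in 1 (0.0357 to 0.413) and Rnf2 in 0 (0.0806 to 0.569), and the log2 fold changes of these genes in PIASy-WT stayed negative in all. The number of members called in PIASy-WT against non-injection was 1 with only the 4 libraries compared and 2 with voom.

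Genes called lower and higher in PIASy-WT against non-injection numbered 928 and 166. The lower count was 154 with no filter, 1441 with a filter of 5 FPKM, 1998 with only the 4 libraries, 256 with eBayes without trend and 1898 with voom, and the higher count 107 with a pseudocount of 0.1, 16 with no filter, 332 with 5 FPKM, 1047 with only the 4 libraries, 59 without trend and 804 with voom. Against PIASy-Mut they numbered 968 and 132. The lower count was 243 with no filter, 1483 with 5 FPKM, 490 with quantile normalization, 630 with median ratio scaling, 0 with only the 4 libraries, 464 without trend and 1881 with voom, and the higher count 11, 207, 0 and 533 with no filter, 5 FPKM, only the 4 libraries and voom. The causes were not tested. Leaving out 1 library gave 0 to 1884 lower and 0 to 894 higher against non-injection, 0 to 2032 and 0 to 1019 against PIASy-Mut, and 0 to 1 higher in PIASy-Mut against non-injection. It gave 0 to 1 members called against non-injection, with L3mbtl2 called without either PIASy-Mut library.

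The PRC1.6 median in PIASy-WT was -1.07, -0.55 and -1.09 against non-injection with pseudocounts of 0.1 and 5 and with voom, and -0.46, -0.56 and -0.94 against PIASy-Mut with a pseudocount of 5, quantile normalization and voom. With quantile normalization the PRC2 core median in PIASy-WT was 0.51 relative to non-injection and 0.37 relative to PIASy-Mut, and this scaling moved the median of all genes by 0.11 against non-injection and 0.15 against PIASy-Mut. Without 1 library the PRC2 core medians were 0.04 to 0.45, -0.05 to 0.23 and -0.12 to 0.28 in the 3 comparisons. The log2 ratio of Ezh1 to Ezh2 was -3.22 in non-injection (-3.50 and -2.46 with pseudocounts of 0.1 and 5), -2.67 in PIASy-Mut (-2.14 with 5) and -3.06 in PIASy-WT (-3.25 and -2.46, -3.12 with quantile normalization and -3.06 with median ratio scaling).

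Directions that turned were those of small differences. Ezh1 against PIASy-Mut was 0.12 with quantile normalization, and in PIASy-Mut against non-injection Ezh2 was -0.038 and -0.031, and Hdac1 -0.061 and -0.042, with quantile and median ratio scaling. Without 1 library, log2 fold changes ranged from -0.11 to 0.43 for Eed and -0.0097 to 0.068 for Suz12 in PIASy-WT against non-injection, and against PIASy-Mut from -0.37 to 0.13 for Ezh1, -0.15 to 0.30 for Eed, -0.0095 to 0.17 for Suz12 and -0.19 to 0.26 for Pcgf6. In PIASy-Mut against non-injection they ranged from -0.16 to 0.21 for Ezh2, -0.18 to 0.35 for Eed, -0.14 to 0.039 for Suz12, -0.38 to 0.34 for Rnf2, -0.35 to 0.82 for Mtf2, -0.16 to 0.18 for Hdac1 and -0.12 to 0.76 for Pcgf5.

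Equal replicate numbers did not pair the libraries (correlation of deviations 0.00368, 0.0851 and 0.0637). With a replicate block 0 members were called, genes called higher in PIASy-WT numbered 89 against non-injection and 67 against PIASy-Mut, and Hdac1 against non-injection had an adjusted P of 0.0504. The planned ratio of Ring1 to Rnf2 was not run because Ring1 is listed at 0. E2f6 had at most 6 fragments in a library, and L3mbtl2 rests on 8 and 12 fragments in PIASy-WT.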
